A study of Mus musculus with 6 samples.

Results

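The hair cortex and cuticle keratins are the keratins that fill the hardened hair shaft and its outer scale layer, and 10 of them were followed here by gene symbol in a table of 35434 genes: Krt31, Krt32, Krt33a, Krt33b, Krt34, Krt35, Krt81, Krt82, Krt85 and Krt86. All 10 were present in the table. RNA-seq had been done on lesional skin of mice with a psoriasis model that received regulatory T cells by transfer, with 3 libraries labelled Lenv-Treg and 3 labelled Ctrl-Treg. Lenv-Tregs are, by the series title, regulatory T cells treated with lenvatinib, an inhibitor of receptor tyrosine kinases, and Ctrl-Tregs are the control cells. Mice of both groups therefore carried the disease and a cell transfer. The sources used here do not give strain, sex, age, how the disease was induced, the lenvatinib dose, the origin of the cells, the skin site or any day of transfer or sampling. Nor do the labels tell whether each library is from its own mouse. The p-values therefore reflect the spread over 3 libraries a group, and that spread may be technical.

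A hair follicle builds its shaft from matrix cells at the base, which divide during the growth phase, move up and fill with keratin. Acidic type I keratins (here Krt31 to Krt35) pair with basic type II keratins (here Krt81 to Krt86) into filaments, which keratin-associated proteins and disulfide bonds then harden. In the human follicle these keratins switch on in a sequence, with KRT35 and KRT85 earliest in the matrix, lower cortex and cuticle, KRT32 and KRT82 in the cuticle, and KRT31, KRT33A, KRT33B, KRT34, KRT81 and KRT86 in the cortex. LEF1 and HOXC13 are transcription factors known to act on hair keratin promoters.

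Upstream sequence was at hand for 5 of the 10 genes in the RefSeq promoter table (GRCm38.p6), and it is shown because these genes moved together and because the transcripts of both factors were measured. Each sequence is the 250 bases before the annotated start, read on the minus strand: chr11:100050552-100050801 for Krt31, chr11:100088270-100088519 for Krt32, chr11:100029869-100030118 for Krt33b, chr11:100041555-100041804 for Krt34 and chr15:101550660-101550909 for Krt82. Capitals mark, on either strand, the LEF1 words CTTTGA and CTTTGT, the HOXC13 words TTTATN or TTAATN followed by 2 purines, and the TATA box word TATAAA.
Krt31 promoter: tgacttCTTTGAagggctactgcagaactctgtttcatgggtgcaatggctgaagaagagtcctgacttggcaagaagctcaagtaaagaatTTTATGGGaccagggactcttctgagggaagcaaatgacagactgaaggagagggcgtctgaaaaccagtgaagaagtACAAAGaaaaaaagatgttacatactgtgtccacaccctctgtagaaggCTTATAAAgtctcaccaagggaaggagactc
Krt32 promoter: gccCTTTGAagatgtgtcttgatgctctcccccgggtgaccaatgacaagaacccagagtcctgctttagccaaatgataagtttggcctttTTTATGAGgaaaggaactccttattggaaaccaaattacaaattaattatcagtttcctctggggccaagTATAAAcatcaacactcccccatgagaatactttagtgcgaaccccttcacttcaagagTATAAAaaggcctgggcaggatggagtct
Krt33b promoter: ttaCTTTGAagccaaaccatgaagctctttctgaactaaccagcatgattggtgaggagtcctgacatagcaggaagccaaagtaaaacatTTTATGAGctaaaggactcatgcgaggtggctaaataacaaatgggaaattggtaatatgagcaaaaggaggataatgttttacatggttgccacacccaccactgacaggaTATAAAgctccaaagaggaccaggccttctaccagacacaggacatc
Krt34 promoter: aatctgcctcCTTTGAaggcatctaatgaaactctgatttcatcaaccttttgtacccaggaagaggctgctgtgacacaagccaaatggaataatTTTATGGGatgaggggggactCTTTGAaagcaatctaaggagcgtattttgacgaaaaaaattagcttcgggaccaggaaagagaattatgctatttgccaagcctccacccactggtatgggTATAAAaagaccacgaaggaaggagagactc
Krt82 promoter: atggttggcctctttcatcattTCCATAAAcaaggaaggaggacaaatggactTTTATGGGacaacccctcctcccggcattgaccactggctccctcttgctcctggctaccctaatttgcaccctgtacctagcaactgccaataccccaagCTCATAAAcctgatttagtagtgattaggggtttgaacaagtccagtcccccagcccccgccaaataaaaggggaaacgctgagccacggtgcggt

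A LEF1 word stood in 4 of the 5 promoters, against 27.6% of all 32851 promoters of the same length, and a HOXC13 word stood in 5 of 5, against 17.2%. The TATA word stood in 4 of 5, against 12.4%. In Krt31 a HOXC13 word on the opposite strand overlaps the TATA word. In all 4 type I promoters a LEF1 word begins between positions -247 and -240 from the start, and a HOXC13 word begins between positions -159 and -154. Longer words were noticed in the sequences and counted afterwards: CTTTGAAG stood in the 4 type I promoters and in 1.42% of all promoters, and TTTTATG stood in all 5 and in 3.77%. The 4 type I genes lie in the same run of genes on chromosome 11, and transcripts of Krt31, Krt33b and Krt34 have 83.7% to 87.9% identical bases. Their promoters may thus not be independent cases to set against all promoters. A word match is a description of the letters and does not show that a factor binds there.

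Lenv-Treg libraries held 39606294 to 40248462 assigned reads and Ctrl-Treg libraries 38704536 to 40247457, recovered from the steps of the deposited FPKM values. FPKM is a read level scaled to gene length and library depth. Of 13945 genes tested, 30.8% were lower and 11.0% higher in Lenv-Treg, 41.7% in either direction (limma on log2(FPKM + 1), Benjamini-Hochberg adjusted p under 0.05). Samples carried skin markers in both groups, with Krt14 at 4428 ± 139 FPKM in Lenv-Treg and 769.4 ± 156.0 FPKM in Ctrl-Treg (SD, n = 3 each). After scaling to equal medians of ratios 2417 genes were higher and 2417 lower, against 1532 and 4289 as deposited, and after rescaling to TPM 947 were higher and 7970 lower. Over all tested genes, the middle value of the differences was -0.17 as deposited, 0.00 with median-ratio scaling and -0.44 in TPM.

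All 10 hair keratins fell in Lenv-Treg, most of them to 0 or a few reads per library. Differences in limma ran from -2.69 for Krt82 to -6.73 for Krt35 on the log2(FPKM + 1) scale, with a median of -4.07 against -0.17 for all tested genes, and adjusted p was at most 0.00133. All 10 also exceeded a 4-fold fall on that scale, as did 1.41% of tested genes. In no gene did the groups overlap, which held in the same direction for 41.0% of tested genes. The 10 genes together took 161 reads in the 3 Lenv-Treg libraries and 87326 in the 3 Ctrl-Treg libraries. For 9 of the 10 the filter on low values (0.5 FPKM in at least 3 of 6 libraries) was met by Ctrl-Treg libraries alone, so that such a gene had to be lower to be tested at all. In a fit with no filter all 10 also passed, at an adjusted p of at most 0.00941, where 16.0% of genes were lower and 5.77% higher. In whole skin, fewer hair-forming cells and less keratin RNA per cell cannot be told apart.

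Krt35 and Krt85, the type I and type II keratins that come first in the human shaft, were the most abundant of the 10. Krt35 had 0.0581, 0.577 and 0.0586 FPKM in Lenv-Treg, against 73.7, 156.2 and 179.9 FPKM in Ctrl-Treg. Krt85 had 0.0386, 0.412 and 0.0487 FPKM in Lenv-Treg, against 71.9, 127.9 and 144.6 FPKM in Ctrl-Treg. For both genes Lenv-Treg replicate 2 stood above the other 2 Lenv-Treg libraries, and Ctrl-Treg replicate 1 was the lowest of its group. The log2(FPKM + 1) difference was -6.73 for Krt35 (SE 0.332, adjusted p = 2.91e-05 in limma) and -6.59 for Krt85 (SE 0.261, adjusted p = 1.65e-05 in limma). By reads, Krt35 was 584-fold lower, on 48 reads in Lenv-Treg and 27631 in Ctrl-Treg, and Krt85 was 682-fold lower, on 52 and 34974 reads. Lenv-Treg replicate 2 held 40 of the 48 Krt35 reads and 43 of the 52 Krt85 reads, and without that library Krt35 was 2327-fold and Krt85 2618-fold lower.

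**Figure D1:**
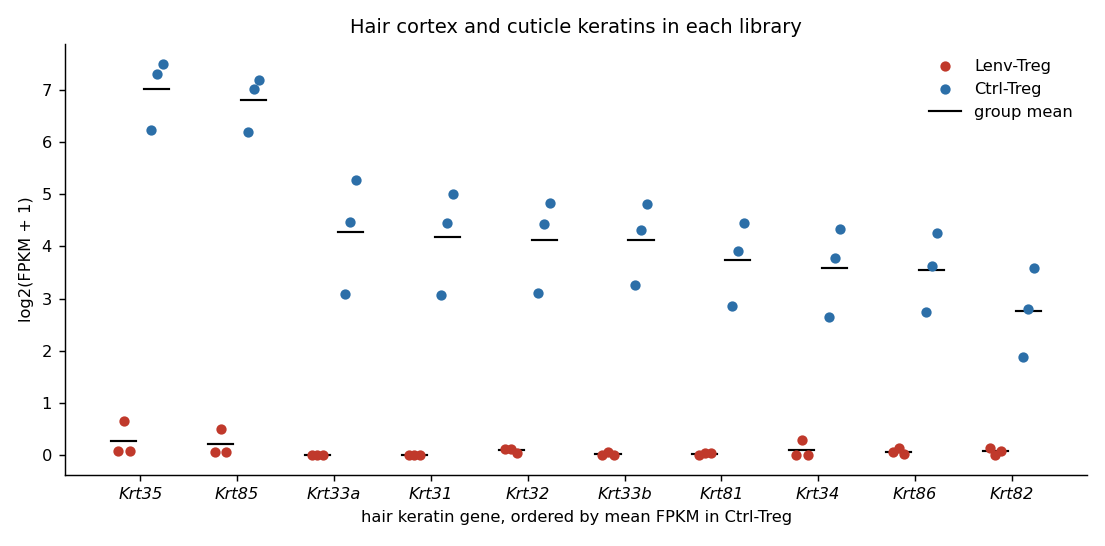
Level of each hair keratin on the log2(FPKM + 1) scale, with 1 point per library, Lenv-Treg left of Ctrl-Treg, and a black line at the mean of 3. All Ctrl-Treg points lie above all Lenv-Treg points of the same gene, and the Lenv-Treg points lie at or near 0, the highest being Krt35 in replicate 2 at 0.577 FPKM.

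Krt32 and Krt82 mark the cuticle, the scale layer around the cortex, in the human hair shaft. Krt32 had 0.0875, 0.0869 and 0.0294 FPKM in Lenv-Treg, against 7.63, 20.4 and 27.6 FPKM in Ctrl-Treg. Krt82 had 0.0953, 0 and 0.0601 FPKM in Lenv-Treg, against 2.70, 5.99 and 10.99 FPKM in Ctrl-Treg. Unlike in the pair before, Lenv-Treg replicate 2 did not stand above the rest of its group for either gene. Krt32 had 6 reads in each of Lenv-Treg replicates 1 and 2, and Krt82 had 8, 0 and 5 reads in Lenv-Treg. Krt32 was 270-fold lower by reads (14 against 3731) and Krt82 was 126-fold lower (13 against 1614), with log2(FPKM + 1) differences of -4.03 (SE 0.390, adjusted p = 0.00031 in limma) and -2.69 (SE 0.369, adjusted p = 0.00133). When Lenv-Treg replicate 1 was dropped the Krt82 fold was 218, and it was 83.6 when Lenv-Treg replicate 2 was dropped and 83.7 when Ctrl-Treg replicate 3 was. Scaled to depth, Lenv-Treg reads were 0.00794 of Ctrl-Treg reads for Krt82, with an exact 95% interval of 0.00422 to 0.0136 for counting error only. For Krt85 the same ratio was 0.00147, with an interval of 0.00109 to 0.00192. The difference in response between these genes was not tested over libraries.

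The cortical type I keratins Krt31, Krt33a, Krt33b and Krt34 lie side by side on chromosome 11. Krt31 had 0 FPKM in all 3 Lenv-Treg libraries, against 7.42, 20.8 and 31.0 FPKM in Ctrl-Treg. Krt33a had 0 FPKM in all 3 Lenv-Treg libraries as well, against 7.44, 20.97 and 37.7 FPKM in Ctrl-Treg. With 3 reads per group taken as the floor, Krt31 was at least 1236-fold lower and Krt33a at least 1466-fold lower. Those limits ran from 821-fold (without Lenv-Treg replicate 2) to 1633-fold (without Ctrl-Treg replicate 1) for Krt31 when 1 library was left out. For Krt33a they ran from 947-fold (without Ctrl-Treg replicate 3) to 1965-fold (without Ctrl-Treg replicate 1). A floor of 3 reads was worth 0.0158 FPKM for Krt31 and 0.0149 FPKM for Krt33a over the Lenv-Treg libraries.

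Krt33b had 0, 0.0471 and 0 FPKM in Lenv-Treg, against 8.52, 19.0 and 26.9 FPKM in Ctrl-Treg. Its 3 Lenv-Treg reads all came from replicate 2, and the depth-scaled read ratio was 0.000879 (exact 95% interval 0.000181 to 0.00257, counting error only). Without that library Krt33b had 0 reads in Lenv-Treg and was at least 756-fold lower. Krt34 had 0, 0.232 and 0 FPKM in Lenv-Treg, against 5.28, 12.7 and 19.2 FPKM in Ctrl-Treg. All 15 of its Lenv-Treg reads came from replicate 2 too, so that the 158-fold lower level by reads was at least 524-fold lower without that library, and 105-fold lower without Lenv-Treg replicate 1. In replicate 2, where Krt34 had those 15 reads, its neighbours Krt31 and Krt33a had 0, although Krt34 was the lowest of the 3 in every Ctrl-Treg library. Differences of the 4 genes ran from -3.49 (Krt34) to -4.27 (Krt33a) on the log2(FPKM + 1) scale, with adjusted p at most 0.00056 in limma.

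Krt81 and Krt86 are the cortical type II keratins of the set, and variants of the human genes cause monilethrix, a beaded hair shaft. Krt81 had 0, 0.0268 and 0.0272 FPKM in Lenv-Treg, against 6.22, 14.1 and 20.8 FPKM in Ctrl-Treg. Krt86 had 0.0383, 0.101 and 0.0129 FPKM in Lenv-Treg, against 5.72, 11.3 and 18.2 FPKM in Ctrl-Treg. They were alike in Ctrl-Treg, with Krt81 the higher of the 2 in all 3 libraries, and in Lenv-Treg both were at most 0.101 FPKM. Krt81 was 757-fold lower by reads (4 against 2986, and 505-fold without Lenv-Treg replicate 1) with a difference of -3.71 (SE 0.353, adjusted p = 0.000288 in limma). Krt86 was 228-fold lower (12 against 2701, and 455-fold without Lenv-Treg replicate 2) with a difference of -3.47 (SE 0.333, adjusted p = 0.000297 in limma).

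Several of these genes are close copies, and the counting tool is not given in the sources used here, so values of single copies are uncertain. In GENCODE M21 transcripts, 43.5% of the 50-base words of Krt81 and 43.3% of those of Krt86 also occurred in another keratin transcript. For Krt31, Krt33a, Krt33b and Krt34 that share was between 21.9% and 33.1%. It was 3.95% for Krt35, and no word of Krt32 or Krt82 was shared. Krt31 and Krt33b had 87.9% identical bases over their aligned transcripts, and Krt31 and Krt32 had 71.9%. Krt35, Krt32 and Krt82, which share few or no words, were lower by 584-fold, 270-fold and 126-fold.

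Per kilobase of gene, the order of mean levels in Ctrl-Treg was Krt35 at 136.6 ± 55.8 FPKM, Krt85 at 114.8 ± 38.1 FPKM, Krt33a at 22.05 ± 15.2 FPKM, Krt31 at 19.7 ± 11.8 FPKM, Krt32 at 18.5 ± 10.1 FPKM and Krt33b at 18.1 ± 9.23 FPKM. Krt81 (13.7 ± 7.30 FPKM), Krt34 (12.4 ± 6.94 FPKM), Krt86 (11.7 ± 6.26 FPKM) and Krt82 (6.56 ± 4.17 FPKM) followed (SD, n = 3). The larger SD of 2 neighbours exceeded the gap between them everywhere except between Krt85 and Krt33a. Within single libraries the order of neighbours was the same in all 3, except for Krt31 and Krt32, Krt32 and Krt33b, and Krt34 and Krt86, which changed places in 1 of 3. In Lenv-Treg the levels were too low to order.

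The spread within Ctrl-Treg was shared by the set. Replicate 1 was lowest and replicate 3 highest for all 10 genes, a ranking found in 21.4% of tested genes. The highest Ctrl-Treg library exceeded the lowest 2.01-fold for Krt85 and 2.44-fold for Krt35, and 3.16-fold to 5.07-fold for the other 8, with Krt33a the most variable. Between replicates 3 and 2 the ratio was 1.13 for Krt85 and 1.15 for Krt35, and 1.35 to 1.83 for the others. Summed FPKM of the inner root sheath list differed otherwise, 2.16-fold higher in replicate 2 than in replicate 1 and 1.01-fold in replicate 3 over replicate 2, while that of the keratin-associated proteins was 2.20-fold and 1.59-fold higher in the same ratios. The Ctrl-Treg libraries thus differed by more in the cortical and cuticle keratins than in Krt35 and Krt85, as a description of 3 libraries.

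Type I members summed to 0.146, 0.943 and 0.0881 FPKM in Lenv-Treg, against 109.95, 249.98 and 322.4 FPKM in Ctrl-Treg. Type II members summed to 0.172, 0.541 and 0.149 FPKM in Lenv-Treg, against 86.5, 159.3 and 194.6 FPKM in Ctrl-Treg. Both classes were thus low together in every Lenv-Treg library, and the sum over the 10 genes was 551-fold lower in Lenv-Treg, or 1349-fold lower without Lenv-Treg replicate 2. The ratio of type II to type I FPKM was 1.18, 0.573 and 1.69 in Lenv-Treg, on 25, 117 and 19 reads, and 0.787, 0.637 and 0.604 in Ctrl-Treg, on 16131, 31906 and 39289 reads. As a share of all assigned reads the 10 genes took 6.25e-05% (exact 95% interval 4.05e-05% to 9.23e-05%), 0.000291% (0.00024% to 0.000348%) and 4.8e-05% (2.89e-05% to 7.49e-05%) in Lenv-Treg. In Ctrl-Treg they took 0.0401% (0.0395% to 0.0407%), 0.0815% (0.0806% to 0.0824%) and 0.102% (0.101% to 0.103%). These intervals cover counting error only, since reads without molecular identifiers are not independent molecules.

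**Figure D2:**
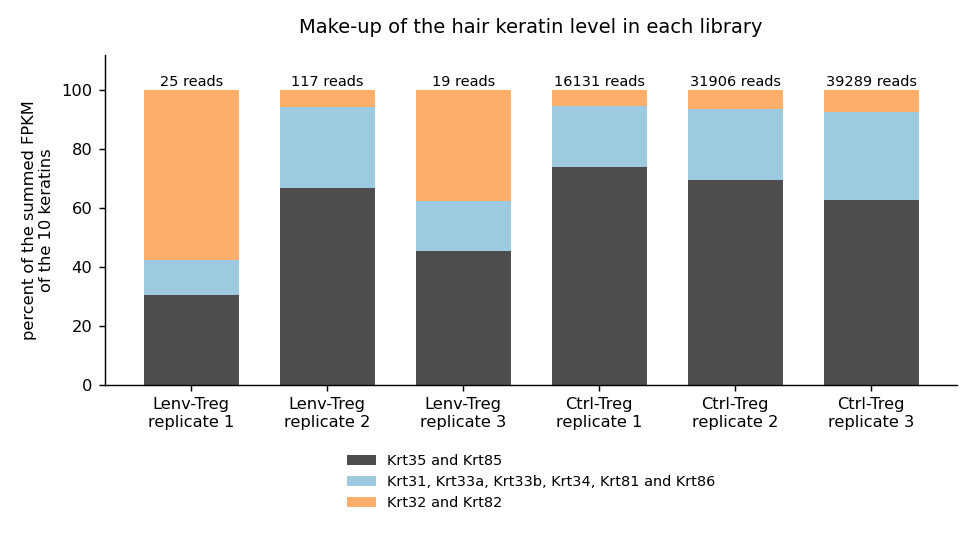
Share of the summed FPKM of the 10 hair keratins held by Krt35 and Krt85, by Krt32 and Krt82 and by the other 6, in percent, with 1 bar per library, Lenv-Treg left, and the number of reads above each bar. Krt32 and Krt82 hold 57.5% and 37.8% in Lenv-Treg replicates 1 and 3, which rest on 25 and 19 reads, 5.86% in Lenv-Treg replicate 2, and 5.26% to 7.47% in Ctrl-Treg.

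The make-up of what remained differed among the Lenv-Treg libraries. Krt35 and Krt85 made up 30.4%, 66.7% and 45.3% of the summed FPKM in Lenv-Treg and 74.1%, 69.4% and 62.8% in Ctrl-Treg. The cuticle pair Krt32 and Krt82 made up 57.5%, 5.86% and 37.8% in Lenv-Treg and 5.26%, 6.45% and 7.47% in Ctrl-Treg. Lenv-Treg replicate 2, the library with the most hair keratin reads of its group, was thus close to Ctrl-Treg in these shares, while replicates 1 and 3 were not. The groups overlapped in both shares, and 25 and 19 reads set wide limits on the shares of replicates 1 and 3.

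Other genes of the follicle showed how far the hair keratins moved with their surroundings. Of 6 further hair keratins, 4 passed the filter, 3 of them through Ctrl-Treg values alone. All 4 fell, against 30.8% of all tested genes, with a median difference of -2.65. Krt87 was 0.0136 ± 0.0236 FPKM in Lenv-Treg and 18.0 ± 11.2 FPKM in Ctrl-Treg (-4.03), the difference was -2.63 for Krt36 and -1.48 for Krt40, which had 0 reads in Lenv-Treg. Krt83 fell least in proportion, to 0.441, 1.36 and 0.776 FPKM in Lenv-Treg, against 4.37, 11.5 and 21.8 FPKM in Ctrl-Treg (14.5-fold by reads, difference -2.66, adjusted p = 0.00413 in limma). Krt83 kept 181 reads in Lenv-Treg, where its close copies Krt81, Krt86 and Krt87 had 4, 12 and 3. Krt84, a hard keratin of tongue papillae and nail in humans, lay below the filter and had 0.886, 0.812 and 0.413 FPKM in Lenv-Treg, against 0.329, 0.0596 and 0.211 FPKM in Ctrl-Treg (0.50, adjusted p = 0.0522 in limma with no filter). Krt39, also below the filter, was 0.0130 ± 0.0119 FPKM in Lenv-Treg and 0.656 ± 0.275 FPKM in Ctrl-Treg (-0.70, adjusted p = 0.0137 in limma with no filter).

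**Figure D3:**
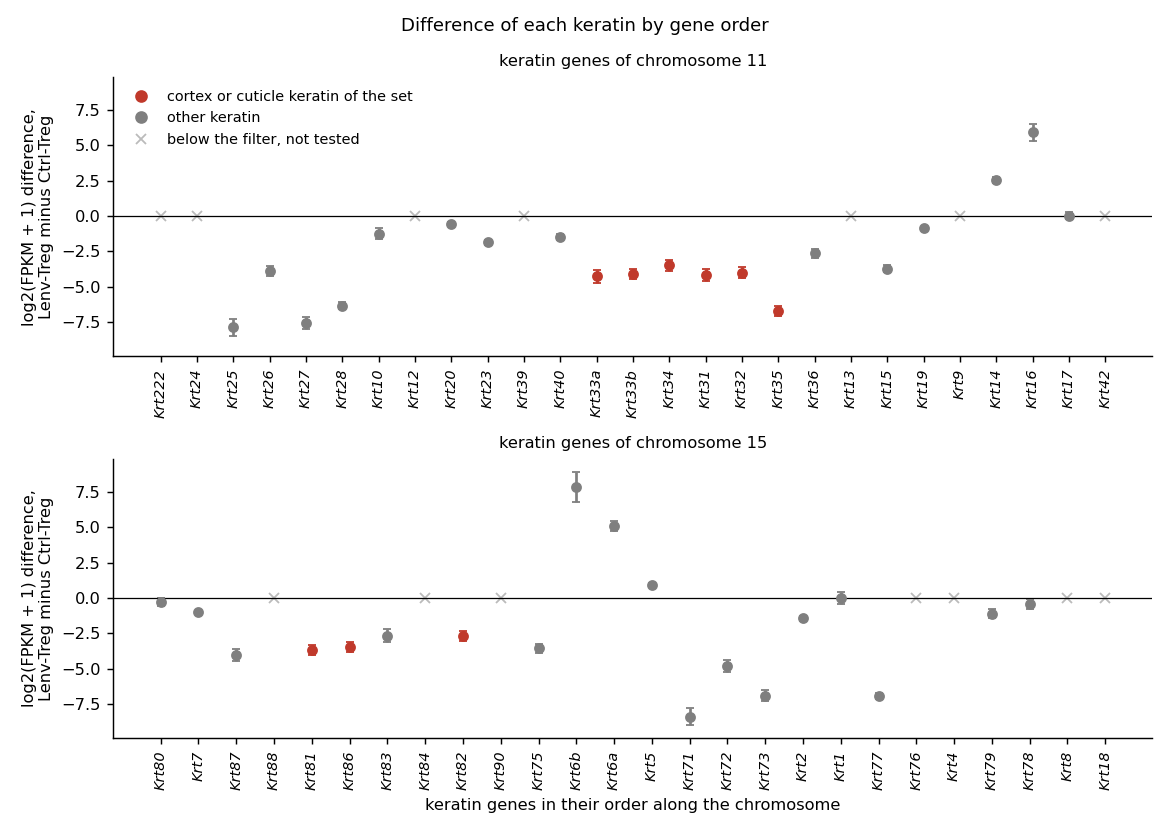
Difference in log2(FPKM + 1), Lenv-Treg minus Ctrl-Treg, with its standard error for each tested keratin in its order along chromosomes 11 and 15. The drawn hair keratins of the set (red) all have negative values, from -6.73 to -2.69. Other keratins lie lower (Krt71 at -8.42) or higher (Krt6b at 7.88). Grey crosses at 0 mark untested genes, not values, among them Krt84 between Krt83 and Krt82. Krt85 is not drawn, since it had no match in the gene order used.

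By gene order, the 6 type I members form a run on chromosome 11 in the order Krt33a, Krt33b, Krt34, Krt31, Krt32 and Krt35, with Krt40 on one side and Krt36 on the other. On the Krt36 side the order goes on with Krt13, Krt15, Krt19, Krt9, Krt14, Krt16 and Krt17. Krt15, a keratin of bulge and basal cells, fell by 3.72, whereas Krt14 and Krt16, keratins of basal and of activated epidermis, rose (2.54 and 5.92). Krt17 was 491.0 ± 159.1 FPKM in Lenv-Treg and 468.6 ± 65.4 FPKM in Ctrl-Treg (0.03, adjusted p = 0.93). Of 14 tested keratins of chromosome 11 outside the set, 11 fell and 2 rose, and of 16 on chromosome 15, 10 fell and 3 rose. Among all tested genes 30.8% were lower and 11.0% higher. On chromosome 11 lower values ran through the whole run of type I members. On chromosome 15 the order was Krt87, Krt88, Krt81, Krt86, Krt83, Krt84 and Krt82, and Krt85 was not placed. There Krt87, Krt81, Krt86, Krt83 and Krt82 fell, while Krt88 and Krt84 lay below the filter. Mean Krt84 was higher in Lenv-Treg (0.703 FPKM) than in Ctrl-Treg (0.200 FPKM). Lower values did not cover the whole of either chromosome's keratin genes.

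Inner root sheath genes mould the growing shaft. Where 30.8% of all tested genes fell, 9 of 9 tested genes of this list did (median -6.63), 3 of them tested through Ctrl-Treg values alone. The largest in level were Krt71 at 1.94 ± 2.65 FPKM in Lenv-Treg and 830.5 ± 322.6 FPKM in Ctrl-Treg, and Krt25 at 2.24 ± 3.01 FPKM in Lenv-Treg and 610.7 ± 234.4 FPKM in Ctrl-Treg. The difference was -6.92 for Krt73 and -6.36 for Krt28. As in Krt35 and Krt85, Lenv-Treg replicate 2 was the highest of its group for each of these 4 genes. Of the 56 genes of keratin-associated proteins, which cross-link hair keratins, 33 were tested, 32 of them through Ctrl-Treg values alone, and all 33 fell (median -2.83). Krtap8-1 had 0.10 ± 0.173 FPKM in Lenv-Treg and 85.9 ± 51.9 FPKM in Ctrl-Treg, and differences were -5.70 for Krtap7-1, -4.58 for Krtap3-1 and -1.42 for Krtap4-13.

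Of 21 tested genes of hair shaft assembly and cuticle, 5 were tested through Ctrl-Treg values alone. In this list 6 fell, a share close to the 30.8% of all tested genes, and 8 rose, against 11.0% (median 0.20). Those that fell include Prr9, a proline-rich gene, which fell by 6.53, and Padi3, whose enzyme converts arginine to citrulline in hair proteins, which fell by 4.43. The 8 that rose (Dsc2, Dsg3, Pkp1, Jup, Tgm1, Tgm3, Tgm5 and Sfn) encode desmosome parts, transglutaminases and the keratinocyte protein stratifin, which epidermis also makes. Sfn was 1033 ± 150.3 FPKM in Lenv-Treg and 471.3 ± 38.6 FPKM in Ctrl-Treg (1.12, adjusted p = 0.0018). Lgals7, another gene of stratified epithelia, did not pass (0.54, adjusted p = 0.127). In the list of companion layer and outer root sheath keratins 5 of 8 rose and 2 fell, with differences of 5.11 for Krt6a, 2.54 for Krt14, 0.91 for Krt5 and -3.72 for Krt15.

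**Figure D4:**
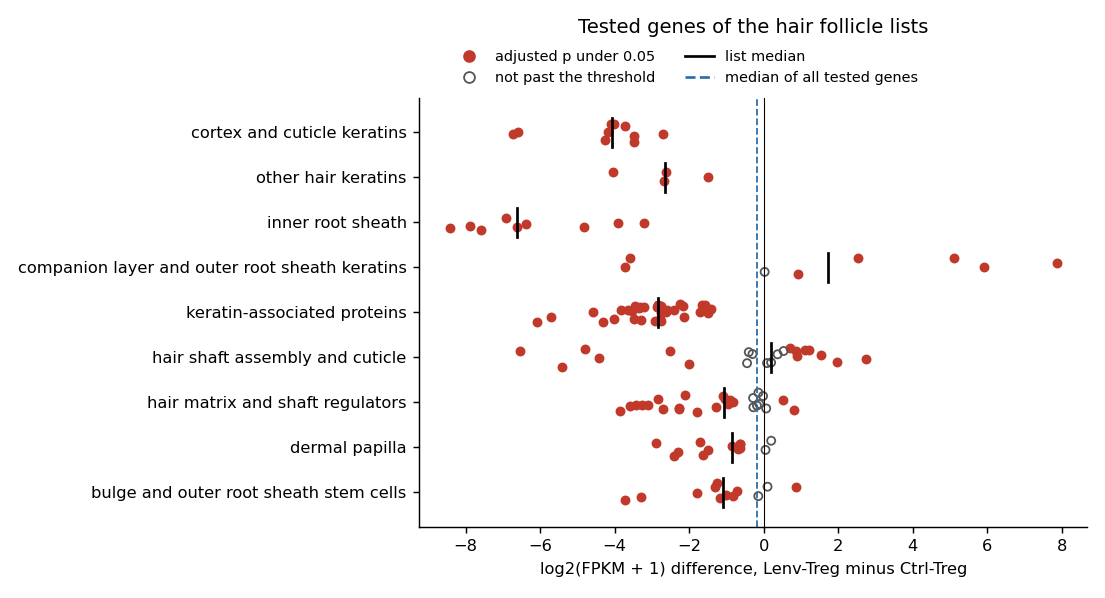
Differences in log2(FPKM + 1), Lenv-Treg minus Ctrl-Treg, of the tested genes of each list, with 1 point per gene, filled where the adjusted p is under 0.05, and a black line at the list median. The cortex and cuticle keratins have a median of -4.07, between the inner root sheath at -6.63 and the keratin-associated proteins at -2.83. The dashed line marks the median of all tested genes at -0.17. On this scale the difference of a gene near 0 in Lenv-Treg follows its Ctrl-Treg level. By summed FPKM the cortex and cuticle keratins were 551-fold lower, the keratin-associated proteins 373-fold and the inner root sheath 298-fold.

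Regulators of the hair matrix did not move as 1 block. Of 26 tested genes of this list, which also holds the keratin Krt80, 7 were tested through Ctrl-Treg values alone. In the list 17 fell and 2 rose (median -1.05), against 30.8% and 11.0% of all tested genes. Hoxc13, the homeobox factor of hair keratin genes, had 0.319, 0.235 and 0.176 FPKM in Lenv-Treg, against 11.03, 20.2 and 21.3 FPKM in Ctrl-Treg. Lef1, a partner of beta-catenin in Wnt signalling, had 0.116, 0.176 and 0.134 FPKM in Lenv-Treg, against 4.02, 8.32 and 7.97 FPKM in Ctrl-Treg. The difference was -3.85 for Hoxc13 (SE 0.227, adjusted p = 4.91e-05 in limma) and -2.71 for Lef1 (SE 0.227, adjusted p = 0.000183 in limma). For both, Ctrl-Treg replicate 1 was the lowest of its group. Replicate 3 was the highest for Hoxc13, as for the hair keratins and 21.4% of tested genes, but replicate 2 was the highest for Lef1. The share of tested genes with replicate 1 lowest in any order of the others was not counted.

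Other regulators that fell were Msx2 (-3.58) and Dlx3 (-3.42), homeobox factors of the matrix, Shh (-3.25), a growth signal of the matrix, and Gata3 (-1.29), a factor of the inner root sheath. Vdr, the vitamin D receptor, and the homeobox gene Dlx2 fell too (-2.26 and -2.28). These differences do not rank the genes by fold, since the scale compresses low values. In mean FPKM, Vdr was 5.24-fold lower and Dlx2 197-fold, the latter on 6 reads in Lenv-Treg. By the same measure Msx2 was 26.2-fold lower, Dlx3 13.2-fold, Shh 201-fold and Gata3 2.59-fold. Foxn1, the factor mutated in nude mice and known to act on hair keratin genes, had 3.92, 4.22 and 3.89 FPKM in Lenv-Treg, against 3.11, 4.21 and 5.03 FPKM in Ctrl-Treg. The Foxn1 groups overlapped, and its difference of -0.01 did not pass (SE 0.144, adjusted p = 0.946). Foxq1 was 3.85 ± 0.0318 FPKM in Lenv-Treg and 4.26 ± 0.506 FPKM in Ctrl-Treg (adjusted p = 0.384, and 0.0417 after rescaling to TPM). Prdm1 rose by 0.51 (adjusted p = 0.00891, and 0.0972 after rescaling to TPM). Hr, the hairless gene, did not pass (0.07, adjusted p = 0.562, and 0.0498 after median-ratio scaling). Nor did Krt80 (-0.27, adjusted p = 0.484), which is a keratin of the list and not a regulator.

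In the dermal papilla, the mesenchyme that instructs the matrix, 11 of 13 tested genes fell (median -0.84), and 5 of the 13 were tested through Ctrl-Treg values alone. Corin, a papilla protease, had 0.0187 ± 0.0140 FPKM in Lenv-Treg and 4.44 ± 0.230 FPKM in Ctrl-Treg (-2.42), and the difference was -2.29 for Alx4 and -0.62 for Enpp2. Crabp1 did not pass (0.20, adjusted p = 0.38, and 0.0401 without Ctrl-Treg replicate 3). Of 12 tested genes of the bulge and outer root sheath, where follicle stem cells sit, 9 fell and 1 rose (median -1.09). Both lists stand beside 30.8% lower and 11.0% higher among all tested genes. Lgr5, a stem cell receptor, was 1.49 ± 0.0632 FPKM in Lenv-Treg and 7.52 ± 0.111 FPKM in Ctrl-Treg, and the difference was -3.28 for Lhx2 and -1.31 for Postn. In mean FPKM, Lgr5 was 5.05-fold and Lhx2 20.1-fold lower, less than any of the 10 hair keratins by reads. Postn (2.46-fold), Alx4 (35.5-fold) and Enpp2 (1.56-fold) also fell by less. Corin was 237-fold lower in mean FPKM, which is more than Krt82 (127-fold), Krt34 (160-fold) and Krt86 (231-fold) by the same measure.

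The 8 genes outside the set whose profile over the 6 libraries lay nearest to the mean profile of the hair keratins were ranked by root mean square difference of centred log2(FPKM + 1) values. The nearest was Gm10229, a predicted gene, at 0.0738, followed by Padi3 at 0.116, Krtap3-1 at 0.139, Krtap3-3 at 0.17 and Krt87 at 0.174. Crnn, which encodes cornulin of squamous epithelia, followed at 0.181, then Krt26, an inner root sheath keratin, at 0.226 and Krtap11-1 at 0.231. Within the set the distance to the mean profile was smallest for Krt33b at 0.116 and largest for Krt35 at 1.22. The values were centred but not scaled, so a small distance also reflects a similar level in Ctrl-Treg. Besides Krt35, the members farthest away were the abundant Krt85 at 1.15 and Krt82, the least abundant, at 0.827. Padi3 had 0.106, 0.389 and 0.140 FPKM in Lenv-Treg, against 13.6, 30.8 and 36.7 FPKM in Ctrl-Treg.

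Markers of other cells moved with the same groups, where 30.8% of all tested genes were lower and 11.0% higher. Of 9 melanocyte genes, 3 of them tested through Ctrl-Treg values alone, 8 fell, with summed levels of 11.5 to 15.1 FPKM in Lenv-Treg and 120.9 to 192.6 FPKM in Ctrl-Treg. All 8 neutrophil genes rose, with sums of 38091 to 53787 FPKM in Lenv-Treg and 51.1 to 195.0 FPKM in Ctrl-Treg. Of these 8, 2 were tested through Lenv-Treg values alone, so that they had to be higher to be tested at all. Most of the Lenv-Treg sum came from S100a8 and S100a9, at means of 21890.5 and 24392 FPKM. The next highest, Retnlg, had a mean of 256.3 FPKM in Lenv-Treg, so these sums mainly follow S100a8 and S100a9. Of 6 keratinocyte genes 3 rose and 1 fell, with sums of 7173 to 8914 FPKM in Lenv-Treg and 2621 to 4267 FPKM in Ctrl-Treg. Of 6 adipocyte genes 4 fell, with sums of 1556 to 2247 FPKM in Lenv-Treg and 2277 to 3168 FPKM in Ctrl-Treg, and of 6 fibroblast genes 3 fell, with sums of 2376 to 3406 FPKM in Lenv-Treg and 4395 to 5581 FPKM in Ctrl-Treg. None of 7 skeletal muscle genes passed in limma or in limma voom (1 had an unadjusted p under 0.05), although some passed under other settings, with sums of 3042 to 4358 FPKM in Lenv-Treg and 3299 to 10590 FPKM in Ctrl-Treg. No marker was at 0 in a whole group, and the part of these other cells in the lower hair keratin values was not tested. Krt5, a keratin of basal keratinocytes in epidermis and follicle, was 1629 ± 75.8 FPKM in Lenv-Treg and 865.3 ± 74.3 FPKM in Ctrl-Treg.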

How the data were processed

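The authors deposited FPKM values for 35434 gene symbols in 6 skin samples. Per the submitters' processing notes, reads were placed on GRCm39. Aligner, counting tool, annotation and filters: not given in the sources used here. Groups came from the treatment label. Members and lists were chosen with earlier results of these data known.

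Whole reads were recovered from the FPKM steps (tolerance 0.005 reads plus 1.5e-07 per read), for 13945 of 13945 genes passing the filter, and summed to 99.7% of depth in each sample. At these depths 1 read on 1 kb was worth 0.0248 to 0.0258 FPKM. Genes with at least 0.5 FPKM in at least 3 samples were tested by limma 3.58.1 in R 4.3.3 (lmFit, eBayes with trend) on log2(FPKM + 1), two-sided, adjusted by Benjamini-Hochberg over 13945 genes. Differences are Lenv-Treg minus Ctrl-Treg and understate the change of low genes. Folds by reads compare reads per assigned read over each group. An exact permutation test of 3 against 3 cannot go below p = 0.1. The fitting was tested on simulated data. Alternatives covered pseudocount, filter, scaling, variance model, sample weights, a replicate block, voom on recovered reads and each library left out. No set test was run.

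Named genes were the 10 members, the 2 of highest mean FPKM and the 2 others of smallest p in each list, fixed regulators, and the 8 nearest profiles. Krt6b, Krt16, Krt17, Krt39, Krt84, S100a8, S100a9 and Retnlg were added after their values were seen, as were the genes listed only by name as having risen. A planned protein comparison was replaced by transcript sequences of GENCODE M21, since no protein table was used here. Promoters came from RefSeq (GRCm38.p6), gene order came from the RefSeq gene table, and no coordinates were transferred between builds.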

Additional observations from a re-analysis of the deposited data

How the results depend on the processing

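The 10 hair keratins were lower past the threshold under all 17 alternatives run for them, which makes 170 of 170 results, with an adjusted p of at most 0.00941. The size depended on the scale. The median difference was -4.07 as reported, -6.95 with a pseudocount of 0.1, -5.05 after rescaling to TPM and -9.57 in limma voom on the recovered reads, and between -4.54 and -3.71 when 1 library was left out. The smaller pseudocount and voom weigh values near 0 more by construction. FPKM summed to between 458848 and 612665 per library, so rescaling to TPM raised all values before the same pseudocount of 1 was added. A pseudocount of 0.5 on FPKM gave a median of -4.96. How much of the TPM change came from this was not tested. The log2 ratio of summed FPKM was -9.11 as reported and ran from -10.40 to -8.70 when 1 library was left out, the lowest without Lenv-Treg replicate 2. List counts stayed within 1.5 times in 270 of 272 cases, the exceptions being 1 regulator higher after rescaling to TPM, against 2 as reported, and 1 dermal papilla gene higher without Ctrl-Treg replicate 3, against 0. With the middle number of the sample titles as a replicate block, all 10 hair keratins were lower with a median of -4.07, and 4270 genes were lower and 1637 higher in all. Correlations of deviations between same-numbered libraries were 0.196, -0.011 and 0.328 for numbers 1, 2 and 3. Between libraries of different numbers they ran from -0.28 to 0.084. Whether same-numbered libraries are pairs is not settled by these values. Calls for Krt10, Cfd and Col3a1, markers of other cells, were lost in 6, 6 and 7 of the 17 alternatives. Without Ctrl-Treg replicate 3, 5 muscle genes passed. Ckm also passed after rescaling to TPM, and Myh1 did so after that rescaling, with the replicate block and without Lenv-Treg replicate 1. Lgals7 passed with the replicate block (adjusted p = 0.0251 in limma). Reads of 0 to 43 per library limit each Lenv-Treg value, so the size of each fall is known less well than its direction.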
